A study of Mus musculus with 13 samples.

Results

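Cell surface proteins of the immunoglobulin superfamily were followed in the embryonic mouse spine, namely Alcam, Lsamp, Ncam1, Ncam2, Negr1, Opcml and Ntm. Every probe set annotated to 1 of these genes alone was taken, which gave 23 of the 45037 probe sets on the array and 7 of its 18193 named genes. Alcam and Lsamp were chosen by their measured differences between mutant and control disc, which ran in opposite directions, and the other 5 genes were added as their relatives. Of the 23 probe sets, 5 belonged to Alcam, 2 to Lsamp, 7 to Ncam1, 3 to Ncam2, 1 to Negr1, 2 to Opcml and 3 to Ntm, and all entered the tests, since no filter on low values was used.

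The arrays were Affymetrix mouse GeneChips hybridized with RNA from lumbar tissue cut by laser from frozen sections of embryos at E13.5. The groups were mutant IVD (presumptive intervertebral disc, 4 arrays, Cre+;Tgfbr2lox/lox), control IVD (3 arrays, Cre-;Tgfbr2lox/wt), mutant vertebrae (3 arrays, genotype spelled Cre+;Tgrbr2lox.lox in the labels) and control vertebrae (3 arrays, Cre-;Tgfbr2lox/wt). All embryos, controls included, therefore carried a floxed allele of Tgfbr2, the type II receptor for TGF-β, and only mutants carried Cre, driven by the Col2a promoter, which is active in cartilage precursors, so deletion is limited to cells that use or used this promoter. IVD samples consisted mostly of future annulus fibrosus with little notochord. The samples were bulk tissue, in which fewer cells of a type and less RNA per cell cannot be told apart.

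Cell adhesion molecules of this superfamily carry immunoglobulin domains outside the cell and bind partners on neighbouring cells. Alcam (CD166) binds itself and CD6, and Ncam1 and Ncam2 bind copies of themselves. Lsamp, Negr1, Opcml and Ntm are IgLON proteins, held in the membrane by a GPI anchor and best known from neurons, where they take part in neurite outgrowth and synapse formation. Alcam is also known as a marker of mesenchymal progenitors and of the perichondrium, and Ncam1 of condensing mesenchyme before cartilage forms.

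The promoters of Alcam, Lsamp and Ntm are shown because these genes had the widest differences between groups among the members with an entry. Each is the RefSeq sequence of the 300 bases around an annotated start site on GRCm38.p6, read along the strand of the gene. The Alcam window lies at chr16:52453032-52453331 on the minus strand, the first Lsamp start at chr16:39984114-39984413 and the second at chr16:41532576-41532875 on the plus strand, and the Ntm starts at chr9:29413403-29413702 and chr9:29412636-29412935 on the minus strand. Capitals mark the Smad box, CAGAC or its reverse complement GTCTG, the short element that Smad proteins downstream of TGF-β receptors recognise.
Alcam start 1: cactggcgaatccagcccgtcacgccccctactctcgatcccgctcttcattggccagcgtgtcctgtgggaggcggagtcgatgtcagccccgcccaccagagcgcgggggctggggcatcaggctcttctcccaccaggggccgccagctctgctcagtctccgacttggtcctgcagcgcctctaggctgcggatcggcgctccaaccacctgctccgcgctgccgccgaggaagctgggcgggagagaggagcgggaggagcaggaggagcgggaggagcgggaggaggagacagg
Lsamp start 1: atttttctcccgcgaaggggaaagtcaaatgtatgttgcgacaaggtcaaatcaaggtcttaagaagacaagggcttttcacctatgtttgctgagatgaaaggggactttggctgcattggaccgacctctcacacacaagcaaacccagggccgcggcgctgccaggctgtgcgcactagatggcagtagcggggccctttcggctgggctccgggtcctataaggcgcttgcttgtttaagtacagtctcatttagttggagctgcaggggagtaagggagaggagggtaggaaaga
Lsamp start 2: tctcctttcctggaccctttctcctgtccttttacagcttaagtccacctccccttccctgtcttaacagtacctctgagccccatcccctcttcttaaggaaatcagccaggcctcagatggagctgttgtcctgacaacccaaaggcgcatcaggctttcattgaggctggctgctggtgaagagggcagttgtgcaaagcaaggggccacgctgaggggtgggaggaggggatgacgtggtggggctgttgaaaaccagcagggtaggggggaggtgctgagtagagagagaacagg
Ntm start 1: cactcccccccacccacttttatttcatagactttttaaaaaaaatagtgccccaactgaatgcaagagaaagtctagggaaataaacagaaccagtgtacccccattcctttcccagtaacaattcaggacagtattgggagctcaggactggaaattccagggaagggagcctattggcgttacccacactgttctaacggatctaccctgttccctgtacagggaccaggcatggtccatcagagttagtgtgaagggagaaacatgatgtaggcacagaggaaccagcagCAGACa
Ntm start 2: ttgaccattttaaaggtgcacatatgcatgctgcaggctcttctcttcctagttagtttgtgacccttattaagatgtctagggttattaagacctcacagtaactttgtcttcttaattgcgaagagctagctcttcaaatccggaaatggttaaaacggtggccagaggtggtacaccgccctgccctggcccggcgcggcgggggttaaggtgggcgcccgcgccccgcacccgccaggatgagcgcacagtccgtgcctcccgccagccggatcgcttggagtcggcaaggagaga

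The Alcam window and both Lsamp windows held no Smad box on either strand, whereas 49.6% of 32851 promoter windows of the same length held at least 1. The first Ntm window held 1 and the Opcml window held 2. The Smad palindrome GTCTAGAC, found in 0.213% of windows, and the E-box CAGCTG, found in 16.3%, occurred in none of the windows of the 6 members with an entry. The Sox site ACAAAG or its reverse complement CTTTGT, found in 18.7%, was present only in the second Ntm window. The palindrome shares the letters AGAC with the Smad box without containing it. Alcam, Lsamp and Ncam2 lie on chromosome 16, Negr1 on chromosome 3, and Opcml and Ntm are direct neighbours among the protein-coding genes of chromosome 9. GC content was 69.7% in the Alcam window, against 53.0% and 56.3% in the Lsamp windows.

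Values below are log2 values relative to the median of the 13 arrays, so they compare arrays and say nothing of how strongly a gene was expressed. A difference of 1 is 2-fold. Tgfbr2 itself, as the mean of its 3 probe sets, was 0.25 ± 0.19 in mutant IVD (SD, n = 4), 0.14 ± 0.22 in control IVD, -0.29 ± 0.29 in mutant vertebrae and -0.06 ± 0.11 in control vertebrae (SD, n = 3 each). Whether its probes lie in the deleted part is not given in the sources used here, so these values do not check the labels. A list of 10 fetal liver genes, read with Trh in place of Trf, averaged 2.42 to 5.03 in 4 arrays (mutant IVD 3 and 4, control IVD 1, control vertebrae 1) and at most 0.31 in the other 9. A list of 25 genes of postmitotic neurons averaged 2.64 in mutant IVD 3 and 1.97 in control vertebrae 3, against -0.68 to 0.59 elsewhere. Mutant IVD 3 also departed from the other mutant IVD arrays on tissue markers, with a mean of 17 fibrous genes of -1.08, against 0.32 to 1.08 in the other 3, and a mean of 16 cartilage genes of 0.02, against -1.64 to -0.54. Matn1, the cartilage matrix protein matrilin 1, stood at 0.60 in that array, against -3.69 to -2.48 in the other mutant IVD arrays and 0.88 to 1.75 in mutant vertebrae. Xist, the RNA of the inactive X chromosome, was at -6.88 to -5.83 in 5 mutant arrays and at -0.04 to 1.81 in mutant IVD 3, mutant vertebrae 3 and all 6 control arrays. Mutant vertebrae 1 had the widest spread, with an SD over probe sets of 0.743, against 0.334 to 0.524 in the other arrays.

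Alcam was highest in mutant vertebrae and lowest in control IVD. As the mean of its 5 probe sets it stood at 1.25 ± 0.47 in mutant vertebrae, 0.08 ± 0.40 in control vertebrae, -0.13 ± 0.32 in mutant IVD and -0.72 ± 0.35 in control IVD (SD, n = 4 for mutant IVD and 3 for the others). In that order, the arrays of mutant vertebrae lay apart from all others, while those of control vertebrae overlapped with mutant IVD and those of mutant IVD with control IVD.

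The lead Alcam probe set, the one besides 1426300_at, 1426301_at, 1437467_at and 1443086_at, read -0.51, 0.34, 0.41 and -0.14 in mutant IVD, against -0.57, -1.31 and -1.17 in control IVD. It was taken as lead because the study lists it, and among the Alcam probe sets it had the largest difference between mutant and control IVD. It read 0.94, 1.42 and 1.32 in mutant vertebrae, against 0.17, -0.14 and 0.00 in control vertebrae. Within each tissue the mutant arrays did not overlap with the control arrays, although mutant IVD 1 and control IVD 1 were only just apart. The probe set 1426300_at behaved differently in the disc, with -0.47, 0.00, 0.00 and -0.68 in mutant IVD and -0.13, -0.21 and -0.51 in control IVD, which overlapped. In vertebrae the same probe set read 0.88, 1.5 and 1.89 in mutants, against 0.41, -0.24 and 0.05 in controls, again without overlap. Over the 13 arrays the 10 pairs of Alcam probe sets had a Pearson r of 0.77 to 0.96, as a description of arrays that share tissue and genotype.

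**Figure D1:**
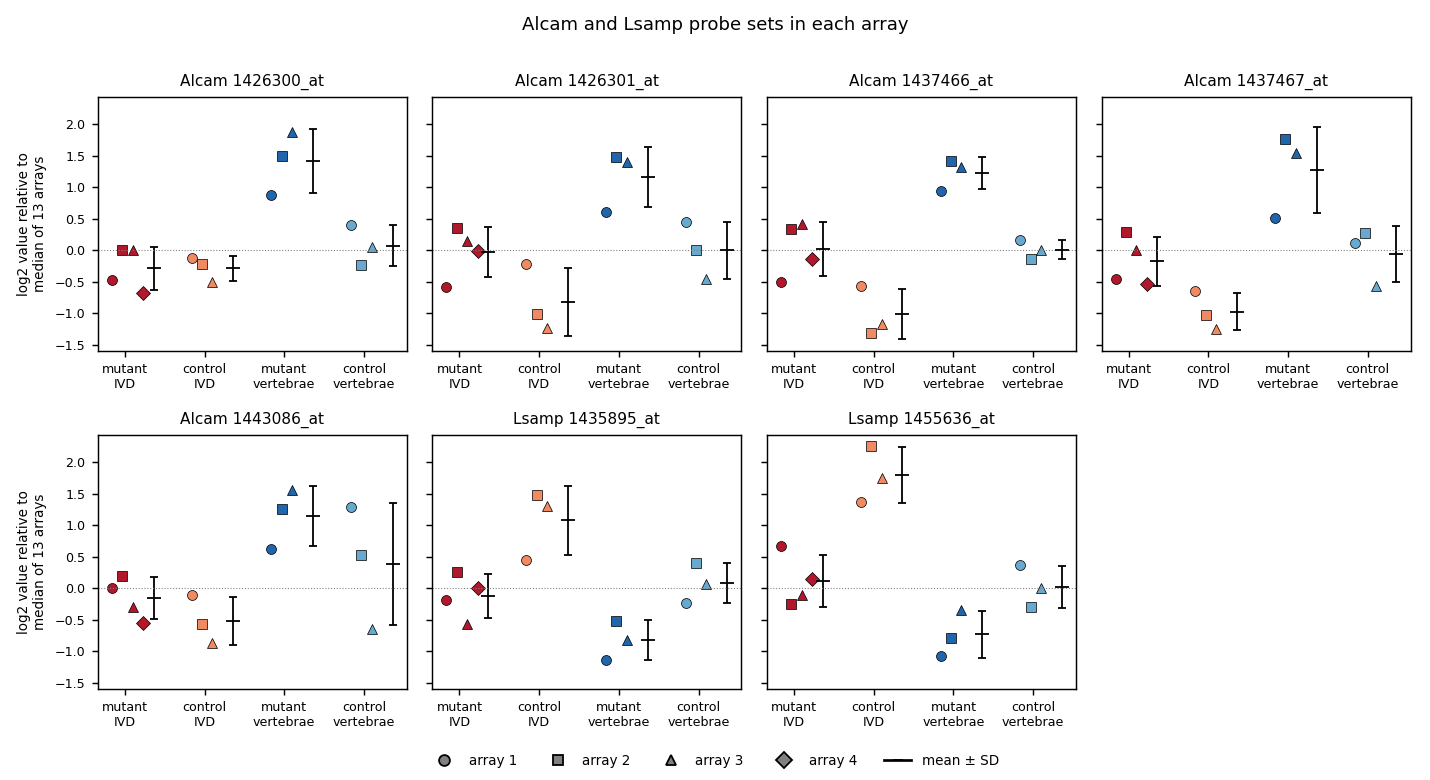
Log2 values of the 5 Alcam and 2 Lsamp probe sets, relative to the median of 13 arrays (y axis), in the 4 groups (x axis). Each symbol is an array and bars give mean ± SD. Alcam is highest in mutant vertebrae on every probe set (group means 1.15 to 1.42), and Lsamp is highest in control IVD (1.08 and 1.80) and lowest in mutant vertebrae.

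Mutant vertebrae were compared with control vertebrae on arrays other than those by which Alcam and Lsamp were chosen, although the control vertebrae were paired by number with control IVD arrays that took part in the choice. Control vertebrae also entered the study's lists of disc-enriched and vertebra-enriched genes, which hold Lsamp and Alcam. The SEs and p-values also took their spread from all 13 arrays, disc arrays included, and so were not independent of the choice. All 5 Alcam probe sets had a higher mean in mutant vertebrae. The differences were 1.22 (SE 0.27) on the lead probe set, 1.35 (SE 0.28) on 1426300_at, 1.17 (SE 0.35) on 1426301_at and 1.34 (SE 0.35) on 1437467_at by limma. The groups did not overlap on these 4 probe sets. On 1443086_at the difference was 0.76 (SE 0.42) and the groups overlapped, because control vertebrae 1 stood at 1.29. After Benjamini-Hochberg adjustment over 45037 probe sets every member had an adjusted p of 0.998 by limma, so none passed the threshold of 0.05. No probe set on the array passed it (0.0% of 45037), and 2.61% had an unadjusted p under 0.05.

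The value on 1443086_at rested on single arrays, at 0.24 without control vertebrae 3 and 1.21 without control vertebrae 1. For the lead probe set the difference ran from 1.12 to 1.36 over 16 alternatives, with an adjusted p of at least 0.312. It was 1.30 without the 4 arrays with liver transcripts. Mutant vertebrae 3, the mutant vertebra array with Xist in the range of the controls, read 1.32 to 1.89 on the 5 probe sets. The part of sex in the Alcam values was not tested. A list of 16 cartilage genes was higher in mutant vertebrae for 16 of 16 genes, with a median difference of 0.32 and none at an unadjusted p under 0.05. Its mean was 0.47 to 1.13 in mutant vertebrae, against -0.003 to 0.90 in control vertebrae. The part of cartilage content in the Alcam values was not tested.

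Lsamp ran the other way. The mean of its 2 probe sets was -0.0049 ± 0.24 in mutant IVD (SD, n = 4), 1.44 ± 0.49 in control IVD, -0.78 ± 0.29 in mutant vertebrae and 0.05 ± 0.02 in control vertebrae (SD, n = 3 each). Control IVD lay above all other arrays and mutant vertebrae below all others, whereas control vertebrae fell within the range of mutant IVD. The 2 probe sets correlated at r = 0.85 over the 13 arrays.

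On its lead probe set, the one besides 1435895_at, Lsamp read 0.67, -0.25, -0.10 and 0.15 in mutant IVD, against 1.38, 2.26 and 1.76 in control IVD. This probe set was also taken as lead because the study lists it, and it had the larger Lsamp difference between mutant and control IVD. In vertebrae the lead probe set read -1.08, -0.79 and -0.34 in mutants, against 0.37, -0.29 and 0.00 in controls. On 1435895_at the values were -0.19, 0.26, -0.58 and 0.00 in mutant IVD, against 0.45, 1.48 and 1.31 in control IVD. The vertebral arrays on that probe set read -1.15, -0.52 and -0.82 in mutants, against -0.24, 0.41 and 0.07 in controls. The mutant arrays were below the controls without overlap in both tissues on both probe sets, and the vertebral gap on the lead probe set was narrow.

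In mutant against control vertebrae the Lsamp differences were -0.91 (SE 0.30) on 1435895_at and -0.76 (SE 0.30) on the lead probe set by limma, neither passing after adjustment. The second was -0.47 with array weights and -0.59 without the 4 arrays with liver transcripts. On the lead probe set mutant vertebrae 3, with Xist in the range of the controls, read -0.34, close to the lowest control at -0.29. Mutant vertebrae 1 and 2, with low Xist, read -1.08 and -0.79. On 1435895_at mutant vertebrae 3 read -0.82, between -1.15 and -0.52 in those arrays. The part of sex in the Lsamp values was not tested. A list of fibrous connective tissue genes, 17 of 18 measured, was lower in mutant vertebrae for 11 genes and higher for 6, with a median difference of -0.22. Its mean ran between -1.45 and 0.26 in mutant vertebrae and between -0.58 and -0.09 in control vertebrae, and its part in the Lsamp values was not tested. Fmod, the collagen-binding proteoglycan fibromodulin, had the smallest p of that list, at -1.65 (SE 0.70, adjusted p = 0.999 by limma over gene means).

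Over all 23 probe sets, 17 had a higher mean in mutant vertebrae and 6 a lower one, with a median difference of 0.39, against 0.05 over all probe sets. At an unadjusted p under 0.05, 4 were higher, all of Alcam, against 1.74% of all probe sets, and 2 were lower, both of Lsamp, against 0.873%. Groups did not overlap for 5 members that were higher (3.63% of all probe sets) and 2 that were lower (1.93%). Differences of at least 2-fold were seen for 4 higher members (0.302%) and 0 lower members (1.29%). The remaining 16 probe sets, those of the 5 relatives, included 12 higher and 4 lower, and 0 of them had an unadjusted p under 0.05.

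**Figure D2:**
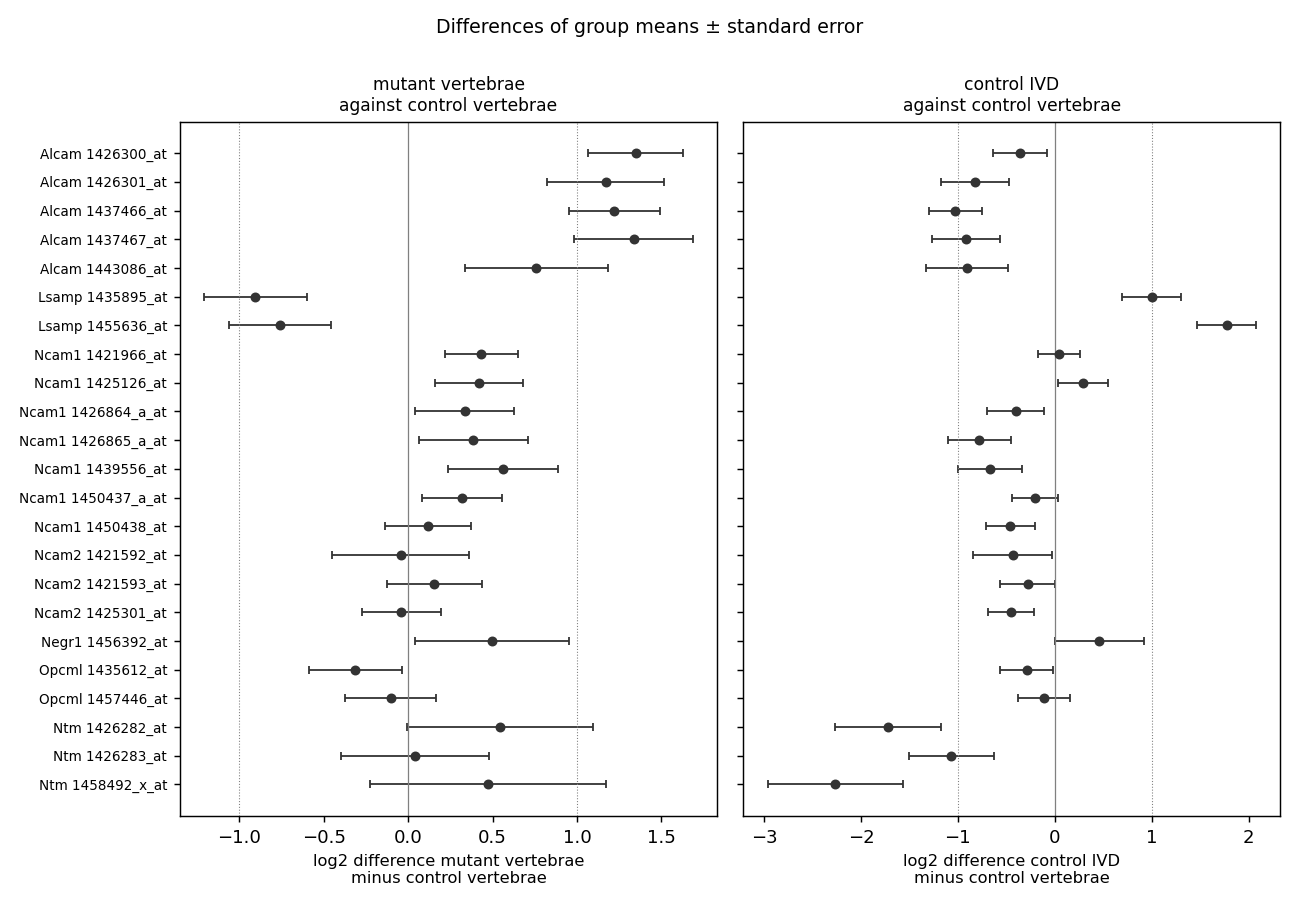
Differences of group means (x axis, log2) for the 23 probe sets (y axis), with bars of 1 standard error from limma, for mutant minus control vertebrae on the left and control IVD minus control vertebrae on the right. Dotted lines mark 2-fold. Alcam lies to the right and Lsamp to the left of 0 in the left panel, and the order is turned in the right panel, where Ntm lies farthest to the left (-2.27 to -1.07).

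Ncam1, the neural cell adhesion molecule, is made in several splice forms, some spanning the membrane and some held by a GPI anchor. In vertebrae all 7 probe sets had a higher mean in mutants, with differences of 0.12 to 0.56 and an adjusted p of 0.998 (limma). The mean of the 7 probe sets stood at 0.35, 0.35 and 0.24 in mutant vertebrae, against -0.32, -0.03 and 0.19 in control vertebrae. Those groups did not overlap, and the difference was 0.37 (SE 0.16, adjusted p = 0.999 by limma over gene means).

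In the disc the Ncam1 probe sets fell into 2 kinds. On 1426864_a_at the values were 0.42, 0.08, 1.02 and 0.91 in mutant IVD, against -0.22, -0.80 and -1.17 in control IVD. On 1426865_a_at they were 0.00, 0.44, 0.97 and 0.86 in mutant IVD, against -0.86, -0.47 and -1.19 in control IVD. On 1439556_at they were 0.21, 0.59, -0.10 and 0.69 in mutant IVD, against -0.74, -0.68 and -1.07 in control IVD. These 3 had no overlap between mutant and control IVD and group means 1.34, 1.41 and 1.18 apart, more than 2-fold in each case. The other 4 probe sets differed by -0.09 to 0.14, and their groups overlapped. Without mutant IVD 3 the 3 differences were 1.20, 1.27 and 1.33, and without the 4 arrays with liver transcripts 1.23, 1.05 and 1.28. On 1426864_a_at and 1426865_a_at the 2 highest mutant values were those of mutant IVD 3 and 4, both arrays with liver transcripts.

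Some lists of other cell types had higher means in mutant IVD too, against a median of 0.04 over all genes. Higher were 25 of 25 neuronal genes (median 0.81), 7 of 7 measured Schwann and neural crest genes (0.24) and 11 of 12 endothelial genes (0.35). So were 8 of 9 measured sclerotome genes (0.46) and 11 of 12 neural progenitor genes (0.17). Most genes were lower in the lists of skeletal muscle (10 of 16), liver (6 of 10), erythroid cells (5 of 7), cartilage (11 of 16), fibrous tissue (14 of 17) and notochord (6 of 6). The neuronal mean was -0.02, -0.43, 2.64 and 0.59 in mutant IVD 1 to 4, against -0.68 to 0.46 in control IVD. The endothelial mean was -0.29 to 0.52 in mutant IVD, against -0.44 to 0.22 in control IVD, and the Schwann and crest mean -0.12 to 0.38, against -0.32 to -0.14. The skeletal muscle mean was 1.78 in mutant IVD 4 and 1.75 in control IVD 1, against at most 0.47 in every other array. The part of any of these cells, muscle included, in the Ncam1 values was not tested.

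The split of the Ncam1 probe sets was drawn after the values were seen and was given no test. Over the 13 arrays the 3 probe sets correlated with each other at r = 0.59 to 0.85 and the other 4 at 0.37 to 0.87. Pairs across the split had an r of -0.20 to 0.27. These arrays include the disc arrays on which the split was drawn, so the r values are no separate check of it. Which exons or ends of the transcript each probe set reads is not given in the sources used here. The amplification was primed with oligo dT from 50 ng of total RNA.

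**Figure D3:**
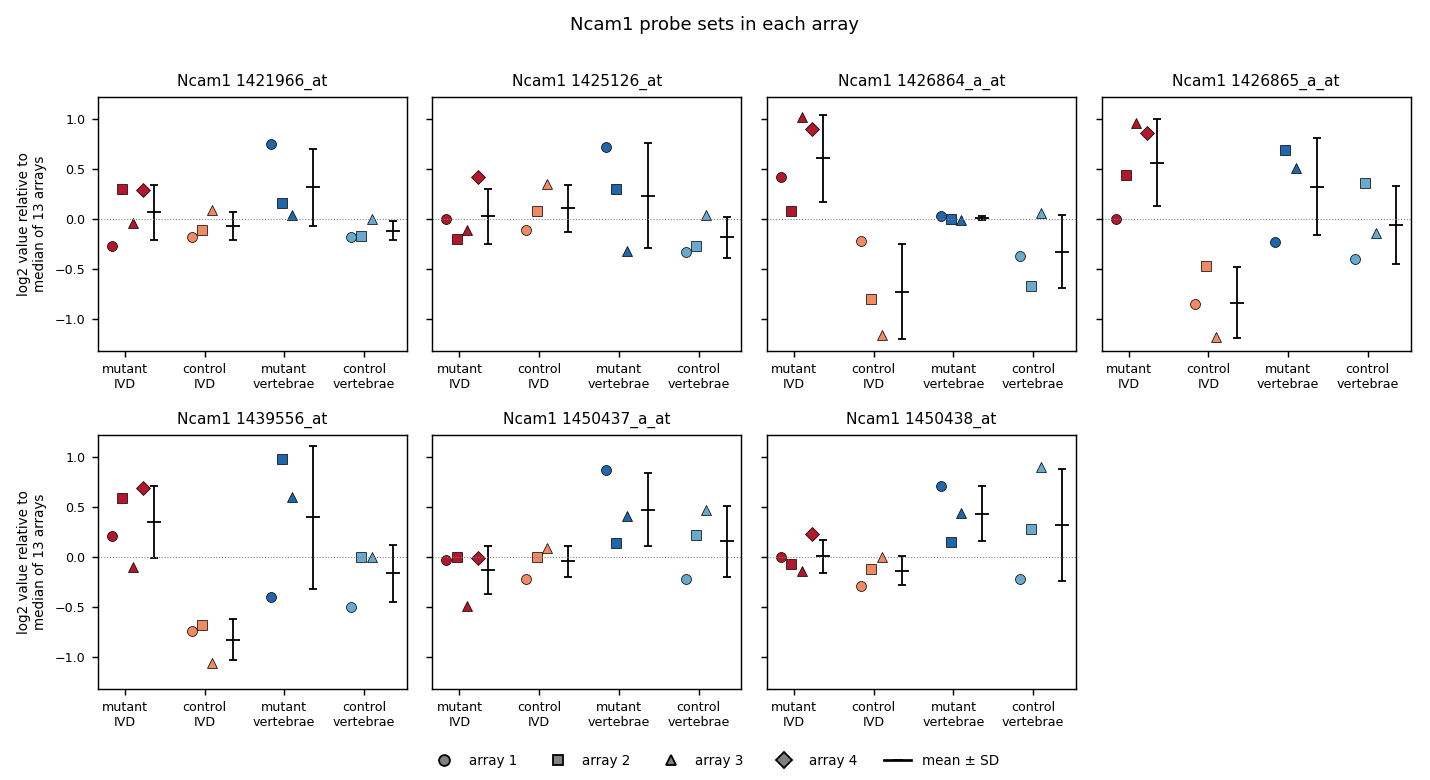
Log2 values of the 7 Ncam1 probe sets relative to the median of 13 arrays (y axis) in the 4 groups (x axis), each symbol an array, with mean ± SD. On 1426864_a_at, 1426865_a_at and 1439556_at all 4 mutant IVD arrays lie above the 3 control IVD arrays, and on the other 4 probe sets these groups overlap.

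In the comparison that chose Alcam and Lsamp, mutant against control IVD, the values are a description. Alcam means were higher in mutant IVD by 1.04 on the lead probe set (SE 0.25), 0.80 on 1426301_at and 1437467_at and 0.36 on 1443086_at, and differed by -0.0014 on 1426300_at. The mean of the 5 probe sets was 0.60 higher. Lsamp was lower by -1.20 (SE 0.28) and -1.68 (SE 0.28). Of the 23 probe sets, 5 were at least 2-fold higher in mutant IVD (0.759% of all probe sets) and 2 at least 2-fold lower (0.384%), and without overlap 6 were higher (3.68%) and 2 lower (0.937%). The 5 were 1 of Alcam, 3 of Ncam1 and 1 of Ntm. Without mutant IVD 3, 3 were at least 2-fold higher, all of Ncam1, with the lead Alcam probe set at 0.91, and 2 were at least 2-fold lower, with Lsamp at -1.05 and -1.61.

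Between the mutant tissues, Alcam was lower in mutant IVD than in mutant vertebrae on all 5 probe sets, by -1.71 to -1.19, and Lsamp was higher by 0.70 and 0.85. At least 2-fold differences covered 7 lower members (0.964% of all probe sets), 5 of Alcam and 2 of Ntm, and 0 higher members (2.66%). Groups did not overlap for 6 lower members (3.21%) and 2 higher members (3.41%). The order between tissues, with Alcam toward the vertebrae and Lsamp toward the disc, was therefore the same in mutant and control embryos, with the mutant IVD arrays also having served to choose both genes. The order in controls was known beforehand, since the study lists Lsamp as disc-enriched and Alcam as vertebra-enriched from the same control arrays.

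Control IVD was compared with control vertebrae to ask which genes mark the presumptive disc. Alcam differed by -1.03 on its lead probe set, and by -0.73, -1.17 and -1.17 within the 3 control numbers, and by -0.92 to -0.36 on its other 4 probe sets. Lsamp differed by 1.77 on its lead probe set, with 1.01, 2.55 and 1.76 within numbers, and by 1.0 on 1435895_at, with 0.68, 1.07 and 1.25. These 2 genes were given no test here, because the control IVD arrays took part in choosing them. A list of 16 cartilage genes was lower in control IVD for 14 genes (median -0.79), led by Matn1 at -3.41, and 15 of 17 fibrous genes were higher (median 1.06), led by Aspn at 2.86. The part of this tissue difference in the values of the members was not tested.

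Ntm, neurotrimin, showed the widest gap between the control tissues among the members. On 1426282_at it read -1.04, -1.41 and -1.83 in control IVD, against 0.00, 0.67 and 0.21 in control vertebrae. On 1458492_x_at it read -0.66, -1.91 and -1.60 in control IVD, against 0.73, 1.38 and 0.50 in control vertebrae. On 1426283_at it read -0.64, -0.55 and -0.39 in control IVD, against 0.00, 0.22 and 1.40 in control vertebrae. On all 3 probe sets control IVD was lower without overlap and in 3 of 3 control numbers. Neural markers ran the same way, with lower means in control IVD for 23 of 25 neuronal genes (median -0.83), 12 of 12 genes of neural progenitors (-0.11) and 7 of 7 genes of Schwann cells and neural crest (-0.28), none at an unadjusted p under 0.05. The neuronal mean was -0.68 to 0.46 in control IVD, against -0.47 to 1.97 in control vertebrae. The neural part in the Ntm values was not tested, and without control vertebrae 3, the array with the highest neuronal mean of the controls, the first 2 differences below were -1.76 and -2.45.

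The Ntm differences were -1.72 (SE 0.55), -2.27 (SE 0.70) and -1.07 (SE 0.44) on these probe sets in that order, each with an adjusted p of 1.0 by limma. With the control number as a random block the adjusted p was 0.0766, 0.0993 and 0.249, so none passed the threshold of 0.05. The last probe set depended on control vertebrae 3, without which the difference was -0.64. The x in the name of 1458492_x_at marks probes that can bind other transcripts too.

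In mutant IVD, Ntm split by array. On 1426282_at mutant IVD 3 read 1.13, against -0.84, -1.17 and -1.38 in mutant IVD 1, 2 and 4. On 1458492_x_at it read 1.80, against -0.11, -0.65 and -0.90. On 1426283_at it read 1.18, against -0.0026, -0.28 and -0.18. Mutant IVD 3 is the array in which the 25 neuronal genes averaged 2.64, and it is also the mutant IVD array closest to vertebrae on cartilage and fibrous genes. The Ntm means in mutant IVD exceeded those in control IVD by 0.86, 1.43 and 0.71, and without mutant IVD 3 by 0.30, 0.84 and 0.37. The neuronal values are relative too, so no marker could be called absent, and the part of neuronal or vertebral tissue in the Ntm values was not tested.

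Across the 4 groups the mean of the Ntm probe sets was -0.12 ± 1.02 in mutant IVD (SD, n = 4), -1.12 ± 0.29 in control IVD (n = 3), 0.92 ± 0.74 in mutant vertebrae (n = 3) and 0.57 ± 0.28 in control vertebrae (n = 3). The vertebral groups overlapped. Mutant vertebrae 2 and 3 were high on Ntm at 1.25 and 1.44 with neuronal means of -0.54 and -0.52, and mutant vertebrae 1 stood at 0.07. The differences of mutant against control vertebrae were 0.04 to 0.54 (adjusted p = 0.998, limma).

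**Figure D4:**
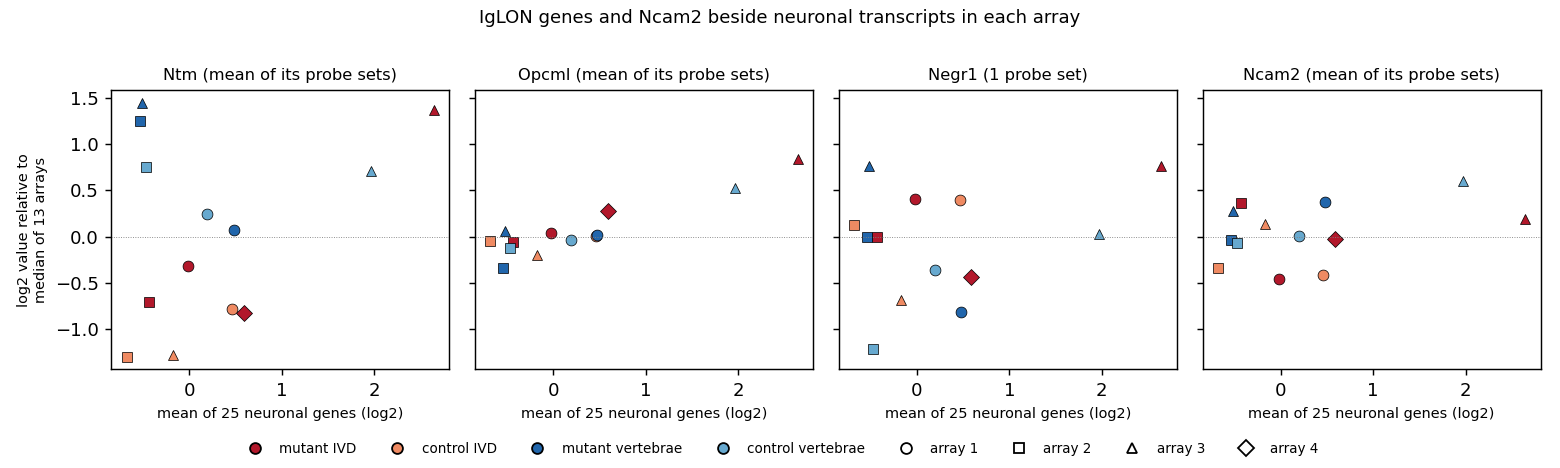
Mean log2 value of each gene's probe sets relative to the median of 13 arrays (y axis) against the mean of 25 neuronal genes (x axis, log2) for Ntm, Opcml, Negr1 and Ncam2, each symbol an array. Mutant IVD 3 (2.64) and control vertebrae 3 (1.97) lie far to the right; Opcml is highest in these 2 arrays (0.84 and 0.53), while Ntm is also high in mutant vertebrae 2 and 3, on the left side.

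Opcml, an IgLON protein first described as opioid-binding, showed small group differences. Its mean was 0.04, -0.06, 0.84 and 0.27 in mutant IVD, against 0.0034, -0.04 and -0.20 in control IVD. It was 0.02, -0.34 and 0.06 in mutant vertebrae, against -0.04, -0.12 and 0.53 in control vertebrae. The 2 highest values were those of the 2 arrays with the highest neuronal means. Mutant against control vertebrae differed by -0.31 (SE 0.27) and -0.10 (SE 0.27) on its probe sets, and control IVD against control vertebrae by -0.29 (SE 0.27) and -0.11 (SE 0.27). Each of these signs turned under at least 1 alternative.

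Negr1, a neuronal growth regulator, had 1 probe set and a wide spread. It read 0.41, 0.00, 0.76 and -0.43 in mutant IVD, 0.39, 0.12 and -0.68 in control IVD, -0.81, 0.00 and 0.76 in mutant vertebrae and -0.36, -1.21 and 0.04 in control vertebrae. All 4 groups overlapped. The difference was 0.50 (SE 0.46, 95% interval -0.49 to 1.49, limma) for mutant against control vertebrae and 0.46 (SE 0.46, interval -0.53 to 1.45) for control IVD against control vertebrae. Both rested on single arrays, the first at 0.11 without mutant vertebrae 3 and up to 0.90 with 1 array left out, and 1.10 with array weights (adjusted p = 0.769, limma), the second at 0.11 without control vertebrae 2 and up to 0.77.

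Ncam2, the relative of Ncam1 known from olfactory neurons, differed by -0.04 to 0.15 between mutant and control vertebrae and by -0.45 to -0.28 between control IVD and control vertebrae on its 3 probe sets, with SEs of 0.23 to 0.41. Its probe sets agreed less than those of Alcam, with an r of 0.18 to 0.62 over the 13 arrays. Its gene mean was lowest at -0.45 (mutant IVD 1) and highest at 0.61 (control vertebrae 3).

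In control IVD against control vertebrae, 13 of the 16 probe sets of the 5 tested relatives had a lower mean and 3 a higher one, with a median of -0.42, against -0.02 over all probe sets. At an unadjusted p under 0.05, 4 were lower, against 1.21% of all probe sets, and 0 were higher (1.25%), and overall 2.45% of probe sets reached that p. The 4 were the 3 of Ntm and 1426865_a_at of Ncam1 (-0.78, SE 0.32, adjusted p = 1.0 by limma). Without overlap, 5 were lower (3.9%) and 0 higher (3.54%), and at least 2-fold 3 were lower (0.573%) and 0 higher (0.864%). No probe set passed after adjustment (0.0%). With the control number as a random block, 6 were lower at an unadjusted p under 0.05 (5.11% of all probe sets) and 1 was higher (5.69%), where 1439556_at of Ncam1 and 1425301_at of Ncam2 joined the lower ones and 1425126_at of Ncam1 was the higher one. With it as a fixed block 7 were lower (5.18%), 1421592_at of Ncam2 included, and 0 higher (6.33%).

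Of 43 other adhesion molecules of the superfamily, 41 were measured. In mutant against control vertebrae 18 were higher and 23 lower (median -0.03, against 0.03 over all genes). Only Sdk1 (0.31, SE 0.14) and Mdga2 (0.41, SE 0.19) reached an unadjusted p under 0.05, and 2.52% of all genes did. In control IVD against control vertebrae 18 were higher and 23 lower (median -0.04), and Kirrel3 (0.81, SE 0.17, adjusted p = 0.698) and Cdon (0.93, SE 0.31, adjusted p = 1.0) were the 2 at that level by limma, against 2.68% of all genes.

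Kirrel3, a nephrin-like adhesion protein, separated disc from vertebra in both genotypes. It read 0.68, 0.41, 0.13 and 0.62 in mutant IVD and 0.10, 0.16 and 0.13 in control IVD. It read -0.80, -0.89 and -1.18 in mutant vertebrae and -0.78, -0.55 and -0.71 in control vertebrae. No disc array overlapped with a vertebral one. Kirrel3 was named for the smallest p of its list between the control tissues, so its gap in controls is no separate result. Over all probe sets, 3.54% were higher in disc without overlap in controls and 3.41% in mutants.

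All 14 listed partners and modifiers of Ncam1 and Alcam were measured. In mutant against control vertebrae 5 were higher and 9 lower, none at an unadjusted p under 0.05, and Ezr, the membrane-cytoskeleton linker ezrin, had the smallest p (-0.71, SE 0.38, adjusted p = 0.999 by limma). In control IVD against control vertebrae 6 were higher and 8 lower, and St8sia4, an enzyme that adds polysialic acid to Ncam1, was lower by -0.75 (SE 0.28, adjusted p = 1.0 by limma). St8sia4 read 0.04, 0.24, 0.42 and -0.21 in mutant IVD, against -0.17, -1.16 and -0.88 in control IVD. These groups overlapped at mutant IVD 4 and control IVD 1.

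The genes whose probe sets followed the lead probe set of Alcam most closely over the 13 arrays were Ebf1 (r = 0.94), Dtna (0.92), Epb41l2 (0.91), Pdrg1 (0.91) and Unc5c (0.91). Ebf1, a transcription factor, averaged -0.16 in mutant IVD, -2.2 in control IVD, 1.20 in mutant vertebrae and 0.05 in control vertebrae. Those closest to the lead probe set of Lsamp were Ydjc (0.92), Ldlrad4 (0.89), Prss35 (0.89), Kcnt2 (0.89) and Ap3m1 (0.88). Ldlrad4, an inhibitor of TGF-β signalling, averaged 0.37 in mutant IVD, 1.53 in control IVD, -0.57 in mutant vertebrae and -0.05 in control vertebrae. The correlations describe arrays that share tissue and genotype. They were picked as the highest among the 34945 probe sets with 1 gene, those of the member itself left out.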

How the data were processed

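RNA from laser-captured lumbar IVD and vertebrae of E13.5 embryos (50 ng each) was measured on 13 Affymetrix arrays. The authors used RMA in GeneSpring with background subtraction and deposited log2 values. Each probe set had a median of 0 over the 13 arrays, which hides how far any signal stood above background, and precision is limited by how few arrays there are. The study's own p-values and folds were not used, but its lists named the lead probe sets of Alcam and Lsamp. GEO's platform annotation gave 34945 probe sets 1 gene, 932 several and 9160 none, and 64 control probe sets were left out.

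Groups were fitted together with limma 3.58.1 (lmFit, eBayes, R 4.3.3) over 45037 probe sets, two-sided, with Benjamini-Hochberg adjustment and a threshold of 0.05. Gene lists were tested on the mean of a gene's probe sets. The fit was tested on simulated data. P-values measure the spread between these samples, called biological replicates in the methods. An exact permutation test of 3 against 3 arrays cannot go below 0.10.

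The members and lists were chosen with earlier results of these data known. Named were all members, the 5 genes most correlated with the lead probe set of Alcam and of Lsamp, and up to 4 genes of each list with the smallest p. Control arrays with the same number, whose vertebrae were captured next to the IVD, deviated together (r = 0.80, 0.57 and 0.57), and were taken as paired. Deviations from a group mean are tied to each other, and control number 1 held liver transcripts in both tissues. The r values are therefore not separate evidence for each pair. The main fit left this pairing out, and only the block alternatives used it. Same-numbered mutant arrays, captured in the same way, had an r of -0.40, 0.24 and -0.15 and were not taken as paired. Their Xist values matched by number, low in arrays 1 and 2 and high in array 3 of both tissues. Whether they share embryos is not given in the labels. Alternatives were other fits, scalings, blocks and left-out arrays.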

Additional observations from a re-analysis of the deposited data

Results flagged for a closer look

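Ncam1 on 1450437_a_at stood at -0.49 in mutant IVD 3, away from the other 3 mutant IVD arrays, which lay between -0.03 and 0.00. The gap was 0.931 of the range of the group. It was the only flag among the 23 member probe sets scanned in mutant IVD, and chance flags about 1 in 20 groups. The same array had the highest mean of neuronal genes, and the part of either in the other was not tested.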

How the results depend on the processing

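No member passed the adjusted threshold under any alternative run. In mutant against control vertebrae no probe set on the array passed under any alternative, and in control IVD against control vertebrae 2 probe sets passed with array weights, 42 with the control number as a random replicate block and 32 with it as a fixed replicate block, against 0 without. With the array number as a block over all arrays 0 passed in either comparison, as with the unequal variance test of the methods. Leaving out 1 array at a time gave 0 in both. The block changed no call of a member at the adjusted threshold.

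In mutant against control IVD 6 of the 23 members changed sign under some alternative, and in mutant IVD against mutant vertebrae 5 did, with differences of at most 0.24 in size over all arrays. Alcam 1426300_at ran between -0.11 and 0.13 in the first, and Ncam1 1439556_at between -0.44 and 0.25 in the second. In the tested comparisons the following changed sign. In mutant against control vertebrae, Ncam2 1421592_at was 0.0395 with array weights, 0.13 with the neuronal mean as covariate, 0.14 without both neuronal arrays and -0.20 to 0.14 when 1 array was left out. Ncam2 1425301_at was 0.0442, 0.0077 and 0.15 under these settings and -0.18 to 0.20 with 1 array out, Ncam2 1421593_at -0.0286 to 0.41. Ncam1 1450438_at was -0.0338 with quantile normalization, -0.16 without the 4 liver arrays and -0.16 to 0.40 with 1 array out, Ntm 1426283_at -0.23 without the liver arrays and -0.23 to 0.47. Opcml 1457446_at was 0.0902 with the covariate, and Opcml 1435612_at 0.0145 without the neuronal arrays and -0.55 to 0.0145 with 1 array out. In control IVD against control vertebrae, Opcml 1457446_at was 0.0643 with the covariate, Opcml 1435612_at 0.0376 without the neuronal arrays and -0.52 to 0.0376 with 1 array out, and Ncam1 1421966_at -0.0324 to 0.11. Leaving out the liver arrays was chosen after seeing the data. The causes were not tested.

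Group sizes of 3 and 4, values without a zero point, mixed tissue and the overlap of sex with genotype limit what these differences can show.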

Other observations

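Iglon5, the fifth IgLON gene and no member, read -0.22, 0.04, 0.29 and -0.08 in mutant IVD, against -0.18, -0.16 and 0.07 in control IVD, and 0.63, -0.15 and 0.00 in mutant vertebrae, against -0.29, -0.02 and 0.15 in control vertebrae. The groups overlapped in both tissues.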
